A study of Mus musculus with 4 samples.

Results

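The genes described here are 32 members of the unfolded protein response and of the amino acid stress response, found by their gene symbol on the probes of a mouse expression array. They comprise 14 chaperones and folding or degradation factors of the endoplasmic reticulum (ER), 3 stress sensors or sensor-activated factors, and 15 genes of the type that the transcription factor ATF4 induces. All 32 were on the array, out of 26737 gene names, with 42 probes, and 31 were bright enough to be tested. Expression was measured in CD4+ T cells on 4 one-colour arrays, 2 from wild-type (WT) cells and 2 from miR-155 knockout cells, which lack a microRNA that activated lymphocytes express. The cells of both genotypes were stimulated in culture through CD3e and CD28 in the presence of TGF-beta and IL-6, which favour T helper 17 (Th17) cells, and CD4+ cells positive for an IL-17F reporter (RFP) were then sorted. The 2 samples of a genotype are given as biological replicates, while strain, age, number of animals and any pooling are not stated in the sources used here. The series' title asks whether miR-155 bears on IL-23 responsiveness and effector genes of Th17 cells.

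Proteins that enter the secretory pathway fold in the ER, and when folding lags behind, 3 sensors of the ER membrane, IRE1, ATF6 and PERK, set off the unfolded protein response. IRE1 (gene Ern1) splices the Xbp1 mRNA and ATF6 is cut to release a transcription factor, and together these raise chaperones and degradation factors. PERK and its relative GCN2, which senses a lack of amino acids, both phosphorylate the translation factor eIF2alpha, which favours translation of Atf4, and ATF4 then induces genes of amino acid synthesis, transport and stress. Activated T cells make large amounts of secreted and surface protein and take up and synthesise amino acids for growth.

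Elements known from the promoters of such genes were searched for in the members, and stretches that hold them are shown because the arrays compare the same branches. Of 30 member promoters 14 held any of them. Promoters were taken from RefSeq (assembly GRCm38.p6), as 250 bases before and 50 bases after the transcript start, for 30 of the 32 members. Hyou1 and Atf6 were not analysed in this respect. The ER stress response element ERSE (CCAAT and CCACG with 9 open bases between them) was searched on both strands, as were ERSE-II (ATTGG and CCACG with 1 open base between them, so that it shares CCACG with ERSE), the XBP1-type element UPRE (TGACGTGG) and the C/EBP-ATF response element CARE (TGATGNAAN). In the stretches below, 5′ to 3′ along the gene's strand, capitals mark ERSE, ERSE-II or CARE letters on either strand.

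Hspa5, ERSE, chr2:34772005-34772063, plus strand: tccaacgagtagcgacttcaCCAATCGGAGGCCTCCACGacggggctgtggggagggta

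Hsp90b1, ERSE on both strands, chr10:86705513-86705676, minus strand: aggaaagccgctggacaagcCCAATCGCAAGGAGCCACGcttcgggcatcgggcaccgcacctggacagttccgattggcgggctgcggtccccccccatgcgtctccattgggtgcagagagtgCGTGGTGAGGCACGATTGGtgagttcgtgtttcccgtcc

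Canx, ERSE, chr11:50325780-50325838, minus strand: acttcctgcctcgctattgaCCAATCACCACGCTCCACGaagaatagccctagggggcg

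Herpud1, CARE and then ERSE-II, chr8:94386296-94386407, plus strand: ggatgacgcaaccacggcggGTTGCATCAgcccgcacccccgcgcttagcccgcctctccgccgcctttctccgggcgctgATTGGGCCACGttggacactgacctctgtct

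Chac1, CARE, chr2:119351028-119351076, plus strand: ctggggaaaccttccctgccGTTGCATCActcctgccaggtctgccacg

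Asns, CARE, chr6:7693210-7693252, minus strand: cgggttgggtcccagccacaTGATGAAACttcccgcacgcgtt

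Slc7a11, CARE on both strands, chr3:50443633-50443699, minus strand: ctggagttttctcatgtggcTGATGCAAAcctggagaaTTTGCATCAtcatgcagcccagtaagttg

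ERSE letters occurred in 7 of the 13 ER promoters, those of Hspa5, Hsp90b1, Dnajc3, Calr, Canx, Pdia6 and Creld2, and in 0.137% of all 27025 gene symbols in the promoter table. In Hspa5 the match began 65 bases before the start, in Pdia6 98, in Dnajc3 105, in Creld2 126, in Canx 145 and in Calr 162 bases. ERSE-II letters occurred in Herpud1 and Dnajb11, against 0.0444% of all symbols. CARE letters occurred in 5 of the 15 ATF4-type promoters, those of Atf3, Trib3, Chac1, Asns and Slc7a11, and in Herpud1 of the ER group, against 4.50% of all symbols. UPRE letters were in 0 of the 30 member promoters and in 0.714% of all symbols. No ATF4-type promoter held ERSE or ERSE-II, and no promoter of the 2 sensors analysed, Ern1 and Xbp1, held any of the 4 motifs. A match is a run of letters in this window only.

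**Figure D1:**
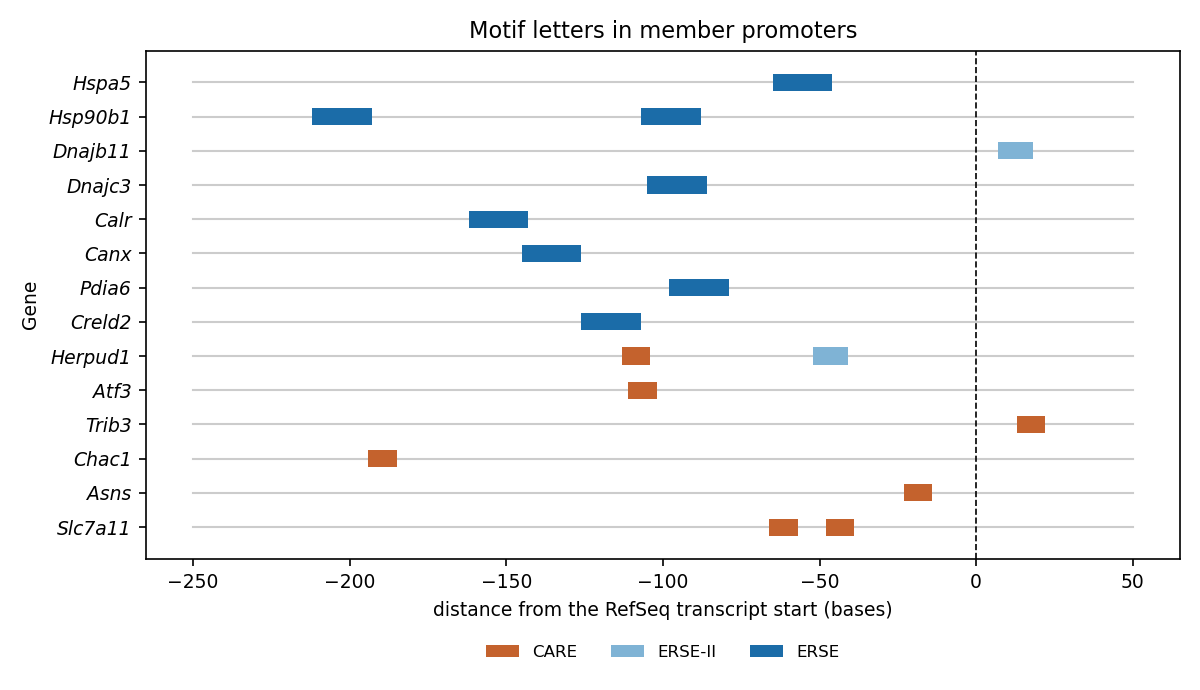
Position of motif letters in the promoters of the 14 members that hold any, in bases from the RefSeq transcript start (dashed line), with grey lines for the window searched. ERSE lies upstream of the start in all 7 genes that have it, while the ERSE-II of Dnajb11 and the CARE of Trib3 lie just downstream of the start.

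Values are log2 processed signals after subtraction of each array's 75th percentile, so 0 is the level of that percentile. All differences are knockout minus wild type on this log2 scale. Genes were tested with limma, and no gene passed a Benjamini-Hochberg adjusted p of 0.05. limma called 0 of 19187 genes (smallest adjusted p 0.255), and an unadjusted p under 0.05 was reached by 1388 genes with the knockout higher (7.23%) and 785 with it lower (4.09%). Without wild-type array 1, 28 genes were called, of which 0 were members. The split of the unadjusted calls depended on scaling, with 63.9% higher as given, 51.6% with quantile scaling, and 735 higher against 2208 lower with each array shifted by its median. Median scaling moved the median of all genes from 0.016 to -0.14, so that every difference under it is to be read against -0.14. All arrays were on 1 slide, where the wild-type arrays filled row 1 and the knockout arrays row 2, and an effect of the row cannot be told apart from that of genotype. The software's spatial surface had been applied at 0.799% of the bright spots of knockout array 1 and at 100% of those of the other arrays. The T cell genes Cd3d, Cd3e, Cd3g and Cd4 had levels between 5.02 and 7.07 on all arrays, with differences of -0.0098, -0.064, 0.047 and -0.16, while Il17f and Il17a differed by -2.01 and -3.17.

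Most members had slightly higher signals in the knockout cells, but none passed the adjusted threshold. Of the 31 tested members 27 had a difference above 0, against 52.4% of all genes tested, and 4 had one below 0, against 47.6%. Of the 31, 8 had an unadjusted limma p under 0.05 with the knockout higher, against 7.23% of all genes. These 8 were the ER genes Hspa5, Hyou1 and Pdia4, the factor Xbp1, and Atf5, Trib3, Chac1 and Asns. At that p, 0 members were lower, against 4.09% of all genes. The smallest adjusted p among the members was 0.337 (limma, Trib3). Both knockout arrays lay above both wild-type arrays for 16 members, against 25.4% of all genes, and below both for 1, Dnajb9, against 22.3%. Under median scaling 20 of 31 differences were above 0, while the median of all genes was -0.14, so that most genes lay below 0. There 3 members, Hyou1, Trib3 and Chac1, kept an unadjusted p under 0.05 by limma, against 3.83% of all genes higher. With any 1 array left out, some or all of the 8 no longer reached that p, in a fit that leaves 1 array in a genotype. The difference of Asns then ran from 0.36 to 0.77, that of Chac1 from 0.52 to 1.04 and that of Ddit4 from -0.80 to 0.042. The replicate number, which coincides with the slide column, was also used as a block. With it 4 members (Hyou1, Pdia4, Trib3 and Chac1) had an unadjusted p under 0.05 by limma with the knockout higher, against 6.26% of all genes. In these bulk samples, a change in the make-up of the sorted cells and a change of RNA per cell cannot be told apart.

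**Figure D2:**
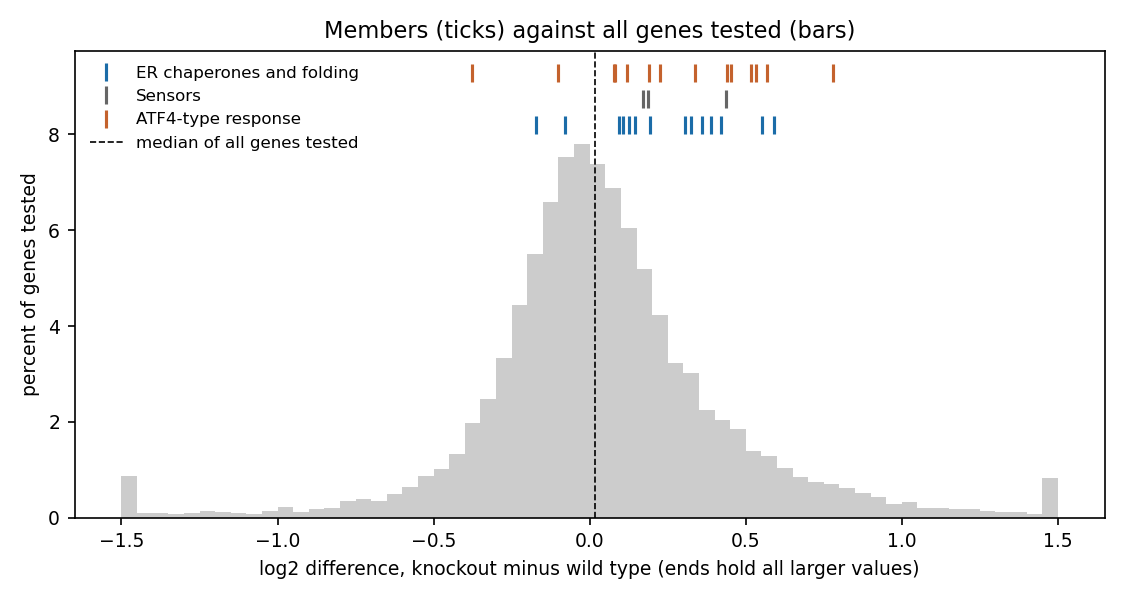
Log2 differences of the members (coloured ticks, by group) above the distribution over all 19187 genes tested (grey bars, percent of genes per bin of log2 difference, with larger values gathered in the end bins). The dashed line marks the median of all genes at 0.016, and most ticks lie to its right.

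Among the ER chaperones and folding factors, 12 of 14 differences were above 0, with a median of 0.25 and a range from -0.17 to 0.59, where the median over all genes was 0.016. Hspa5 encodes BiP, the HSP70 chaperone of the ER lumen and a regulator of the sensors. It was at 5.62 and 5.61 in wild type and at 6.01 and 5.93 in the knockout. Both knockout arrays were higher, and the wild-type arrays were nearly equal. The difference was 0.36 ± 0.12 (SE), a 1.28-fold higher signal, with an unadjusted p of 0.0356 and an adjusted p of 0.414 by limma.

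Hyou1, an ER chaperone of the HSP110 type that serves BiP as a nucleotide exchange factor, was at -2.08 and -1.80 in wild type and at -1.41 and -1.28 in the knockout. The genotypes did not overlap on this probe, which was well above background on all 4 arrays. The difference was 0.59 ± 0.16 (SE), 1.51-fold, with an unadjusted p of 0.0183 and an adjusted p of 0.357 by limma. Under median scaling it was 0.43. Its RefSeq promoter was not analysed.

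The protein disulfide isomerases, which form and rearrange disulfide bonds in the ER, include 3 of the members. Pdia4 was at 1.33 and 1.38 in wild type and at 1.73 and 2.09 in the knockout. Its knockout arrays were farther apart than its wild-type arrays but did not overlap with them. The difference was 0.55 ± 0.17 (SE), 1.47-fold, with an unadjusted p of 0.0294 and an adjusted p of 0.394 by limma. Pdia6 was at 6.05 and 6.27 against 6.68 and 6.41, a difference of 0.39 ± 0.16 (SE) from its brighter probe. Pdia6 had a second, dimmer probe with a difference of 0.082 and overlapping arrays. Pdia3, the isomerase that works with calnexin and calreticulin, was at 2.87 and 2.95 against 3.13 and 3.30, a difference of 0.31 ± 0.13 (SE). Unadjusted p-values by limma were 0.0760 for Pdia6 and 0.0778 for Pdia3.

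Canx encodes calnexin, the membrane-bound lectin chaperone of glycoproteins, and it was at 5.03 and 5.002 in wild type and at 5.43 and 5.26 in the knockout. The arrays did not overlap, and the difference was 0.33 ± 0.13 (SE) with an unadjusted p of 0.0630 by limma. Its soluble partner calreticulin, from Calr, had overlapping arrays and a difference of 0.12, which was -0.036 under median scaling. Creld2, an ER protein induced by ER stress, was at 3.81 and 4.02 against 4.50 and 4.17, a difference of 0.42 ± 0.18 (SE) with an unadjusted p of 0.0746 by limma. The Creld2 probe was printed 10 times on each array, and its spots varied within an array by an SD of 0.021 to 0.085 (log2). That is smaller than the gap between the knockout arrays, and 2 of its spots on knockout array 2 were left out as outliers.

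The other ER members differed by less. Hsp90b1, the ER form of HSP90, had a difference of 0.11, Sdf2l1 of 0.19, and the co-chaperone genes Dnajb11 and Dnajc3 of 0.14 and -0.079. Herpud1, which takes part in ER-associated degradation, had a difference of 0.095. Those of Hsp90b1, Dnajb11 and Herpud1 were below 0 under median scaling, at -0.055, -0.016 and -0.065. Dnajb9, the co-chaperone ERdj4 that XBP1 is known to induce, was at 0.084 and 0.057 in wild type and at -0.25 and 0.043 in the knockout. Its difference of -0.17 was 0.087 once knockout array 1 was spatially corrected, and its second probe gave 0.074.

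Of the sensors, the kinase and nuclease IRE1 showed no consistent separation between genotypes across the probes of its gene, Ern1. On its brightest probe Ern1 was at -0.17 and -0.28 in wild type and at 0.38 and -0.49 in the knockout. The wild-type arrays thus lay between the knockout arrays. The 4 probes of Ern1, which are assigned to different transcripts, gave differences from -0.47 to 0.38. Both knockout arrays were lower on the dim probe at -0.47 and higher on the dim probe at 0.38. Atf6 was at -1.25 and -1.73 against -1.40 and -1.20, a difference of 0.19 ± 0.21 (SE) with overlapping arrays. Xbp1, the mRNA that IRE1 splices into the form encoding an active factor, was at 6.28 and 6.12 in wild type and at 6.74 and 6.53 in the knockout. Its arrays did not overlap, and the difference was 0.44 ± 0.15 (SE), 1.35-fold, with an unadjusted p of 0.0382 and an adjusted p of 0.418 by limma. The single Xbp1 probe gives the sum of the forms it binds, and splicing was not analysed here.

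**Figure D3:**
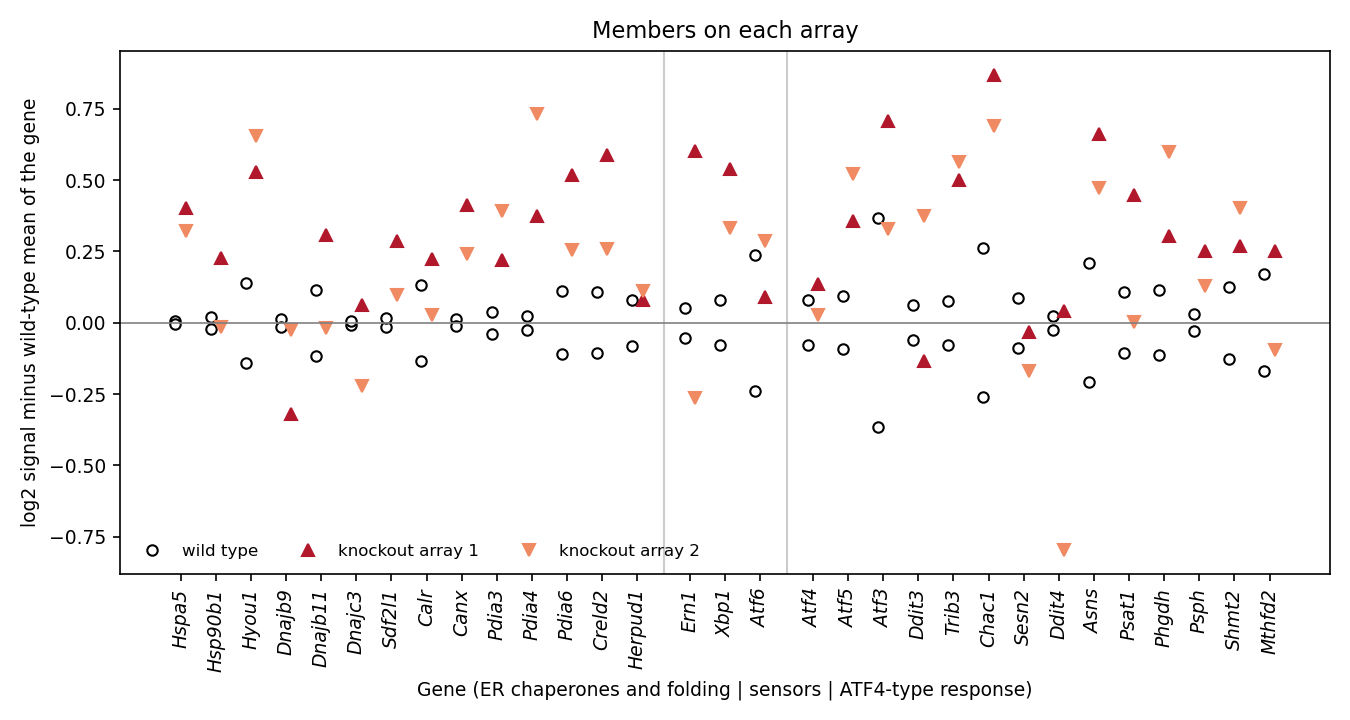
Signal of each tested member on each of the 4 arrays, as log2 value minus the gene's wild-type mean (open circles, wild type; triangles, knockout array 1 pointing up and array 2 pointing down). The knockout triangles lie above both wild-type circles for 16 of the 31 genes, and Ddit4 has the lowest knockout value, on array 2.

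In the ATF4-type group, 12 of 14 tested differences were above 0, with a median of 0.28 and a range from -0.38 to 0.78. Atf4 itself, which is controlled largely by translation, was at 6.77 and 6.61 in wild type and at 6.82 and 6.72 in the knockout. Its arrays overlapped on this brighter probe, and the difference was 0.081 ± 0.13 (SE), or -0.079 under median scaling. The second, dimmer probe of Atf4 gave 0.28, with both knockout arrays above both wild-type arrays. Ddit3, which encodes the stress factor CHOP, was at 2.12 and 2.003 against 1.93 and 2.44. The knockout arrays lay on both sides of the wild-type arrays, and the difference was 0.12 ± 0.21 (SE), or -0.040 under median scaling. Atf3, another stress-induced factor, was at 0.74 and 0.0067 against 1.08 and 0.70, a difference of 0.52 ± 0.31 (SE) with overlapping arrays. Atf5, a relative of ATF4, was at 2.44 and 2.62 against 2.88 and 3.05. Its arrays did not overlap, and the difference was 0.44 ± 0.14 (SE), 1.36-fold, with an unadjusted p of 0.0352 and an adjusted p of 0.412 by limma.

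The stress effectors downstream of these factors differed among themselves. Chac1, which encodes an enzyme that degrades glutathione, was at -0.98 and -0.46 in wild type and at 0.15 and -0.027 in the knockout. Both knockout arrays lay above both wild-type arrays, and the difference of 0.78 ± 0.22 (SE), 1.72-fold, was the highest of the members, with an unadjusted p of 0.0233 and an adjusted p of 0.379 by limma. Trib3, a pseudokinase gene that ATF4 and CHOP induce, was at 3.09 and 3.24 against 3.67 and 3.73. Its arrays did not overlap, and the difference was 0.53 ± 0.13 (SE), 1.45-fold, with an unadjusted p of 0.0132 by limma, the smallest among the members. Sesn2 and Ddit4, both of which encode inhibitors of mTORC1 signalling, had differences of -0.10 and -0.38. Ddit4 was at 7.45 and 7.40 in wild type and at 7.46 and 6.62 in the knockout. Its difference rested on knockout array 2, and without that array it was 0.042.

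Of the 4 members that encode enzymes of amino acid synthesis, 1 had an unadjusted p under 0.05 by limma. Asns, asparagine synthetase, was at 3.31 and 3.73 in wild type and at 4.18 and 3.99 in the knockout. The arrays did not overlap, and the difference was 0.57 ± 0.20 (SE), 1.48-fold, with an unadjusted p of 0.0420 and an adjusted p of 0.425 by limma. Phgdh, the first enzyme of serine synthesis, was at 3.91 and 4.13 against 4.33 and 4.62, a difference of 0.45 ± 0.17 (SE) with an unadjusted p of 0.0562 by limma. Its second probe gave 0.61, also with no overlap. The following enzymes of the same pathway, from Psat1 and Psph, had differences of 0.23 and 0.19, with 0.37 and 0.085 from their second probes. On both second probes the knockout arrays lay above the wild-type arrays. The arrays of Psat1 overlapped on the brighter probe, where its difference without knockout array 1 was 0.0030.

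Of the mitochondrial one-carbon enzymes fed by serine, Shmt2 was at 3.39 and 3.65 against 3.79 and 3.92. Its arrays did not overlap, and the difference was 0.34 ± 0.15 (SE) with an unadjusted p of 0.0879 by limma. Mthfd2 had overlapping arrays and a difference of 0.078 ± 0.20 (SE), which was -0.083 under median scaling. Slc7a11, the cystine transporter, was not well above background on any of the 4 arrays and was not tested, although its promoter holds CARE letters on both strands.

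**Figure D4:**
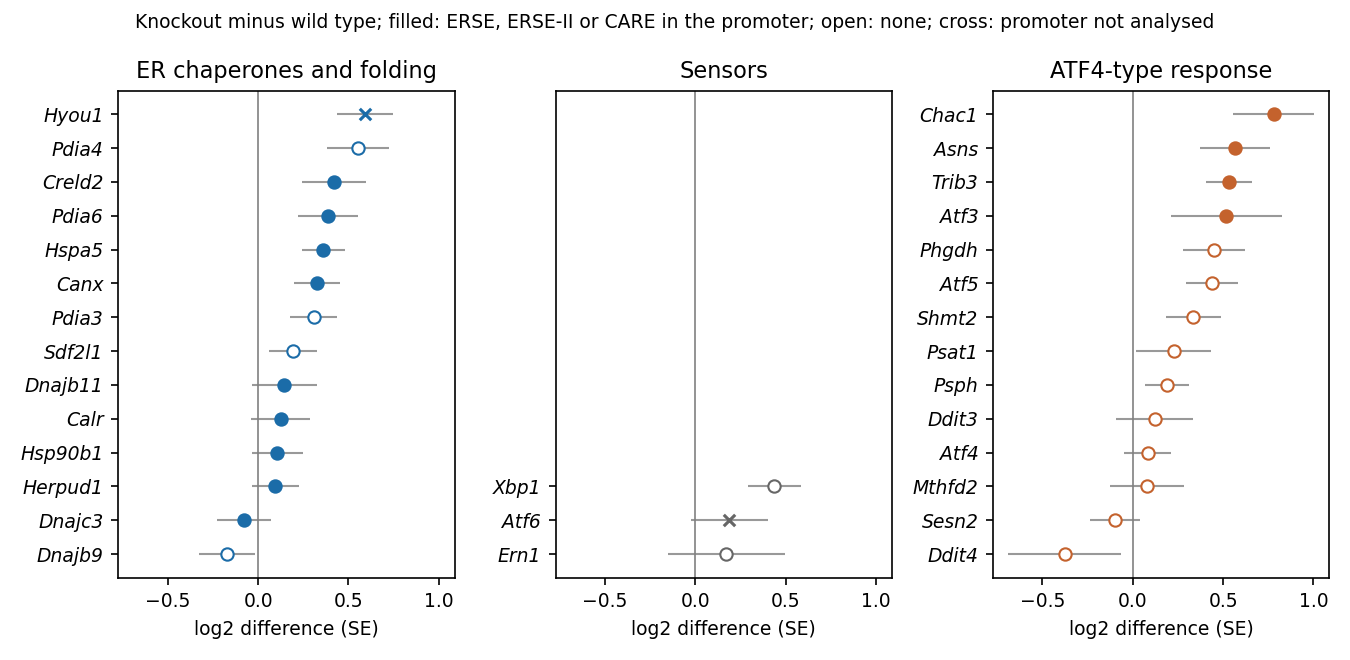
Log2 difference, knockout minus wild type, of each tested member with its standard error from limma, in 3 panels by group and ordered by size. Filled points have ERSE, ERSE-II or CARE letters in the promoter, open points have none and crosses mark genes whose promoter was not analysed; the 4 filled points of the ATF4-type panel lie from 0.52 to 0.78, an order that leaving out 1 array changes.

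The gap between the ER and ATF4-type groups overlapped between the genotypes. With each member set against its own wild-type mean, the ER members averaged 0.28 on knockout array 1 and 0.20 on knockout array 2, and the ATF4-type members averaged 0.33 and 0.22. Both knockout averages exceeded the wild-type averages, which were -0.054 and 0.054 for the ER group and -0.036 and 0.036 for the ATF4-type group. The ER average minus the ATF4-type average was -0.018 and 0.018 on the wild-type arrays and -0.052 and -0.017 on the knockout arrays. The medians of the differences were 0.25 and 0.28, and the ER median minus the ATF4-type median was -0.031. The sign of that gap was not stable, with -0.18 without knockout array 1, 0.0095 without knockout array 2, 0.0072 without wild-type array 1 and -0.0032 without wild-type array 2.

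**Figure D5:**
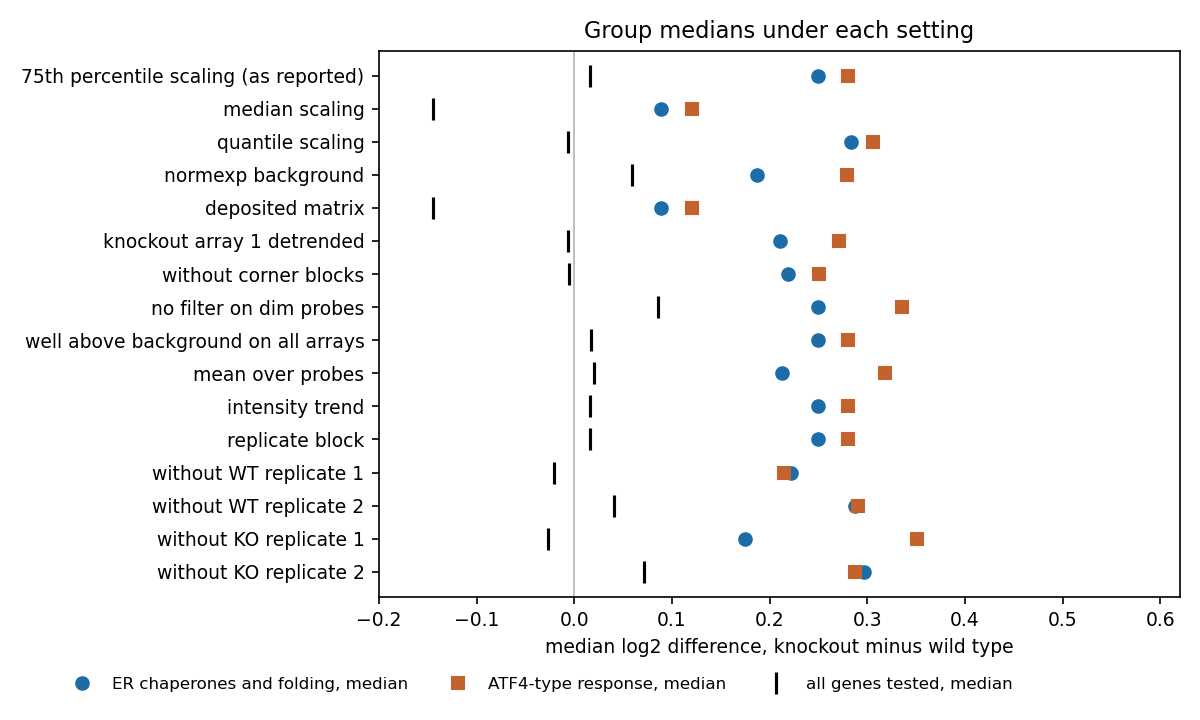
Median log2 difference, knockout minus wild type, of the ER group (circles), the ATF4-type group (squares) and all genes tested (vertical bars) under each of the 16 settings. Both groups lie to the right of all genes in each setting, and median scaling and the deposited matrix move all 3 medians to the left.

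Differences were set beside the promoter letters as a description, with no test, since the members were chosen with results known. The 4 tested ATF4-type genes with CARE letters, Atf3, Trib3, Chac1 and Asns, had differences from 0.52 to 0.78, and the 10 without ranged from -0.38 to 0.45. This order did not hold without wild-type array 2, where Atf3 was at 0.15, below Phgdh (0.56) and Atf5 (0.53). Nor did it hold without knockout array 1, where Atf3 was at 0.33, below Phgdh (0.60) and Atf5 (0.52). It held narrowly without wild-type array 1, with Asns at 0.36 and Atf5 at 0.35. Without knockout array 2 it held as well, with Trib3 at 0.50 and Psat1 at 0.45. Outside that group Herpud1, which also has CARE letters, was at 0.095. Over all 360 tested genes with CARE letters in the promoter the median was 0.063, against 0.011 over all 11543 tested genes with a promoter. In the ER group, the 7 genes with ERSE ranged from -0.079 to 0.42 with a median of 0.33, and the 6 without from -0.17 to 0.55 with a median of 0.17. With ERSE-II counted too the order turned, with a median of 0.14 for the 9 genes with either element and of 0.25 for the 4 with neither. Over all 21 tested genes with ERSE letters, which include these 7, the median was 0.11.

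Further genes of the pathways, from lists that hold no member, were read in the same fit. In the list of 28 other ATF4-type genes, 27 were tested. Of these, 6 had an unadjusted p under 0.05 by limma with the knockout higher, against 7.23% of all genes. At that p 0 were lower, against 4.09%. The list's median was 0.22, with 18 differences above 0 (52.4% of all genes) and 9 below. Both knockout arrays lay above both wild-type arrays for 12, against 25.4% of all genes, and below both for 5, against 22.3%. Among those 5 was Eif4ebp1, with the lowest difference of the list, -0.37. Jdp2, a bZIP repressor gene, differed by 1.06 ± 0.12 (SE), a 2.08-fold higher signal with an unadjusted p of 0.000853 and an adjusted p of 0.255 by limma. It was at 1.56 and 1.501 in wild type and at 2.65 and 2.53 in the knockout. Aldh1l2, a mitochondrial one-carbon enzyme, differed by 0.82, the stress factor Nupr1 by 0.61, Pycr1 of proline synthesis by 0.56, and Cbs of transsulfuration by 0.49. The sixth was Cth, of the same transsulfuration pathway, at 0.47. The 12 aminoacyl-tRNA synthetase genes of that list had differences on both sides of 0, with Sars at 0.31, Gars at 0.22, Eprs at -0.19 and Lars at -0.19, and none had an unadjusted p under 0.05. Cars had 1 wild-type array left out as an outlier.

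Other ER genes had a lower median than the ER members. In a list of 32 such genes, 2 of 31 tested had an unadjusted p under 0.05, both higher, which is near the share of all genes. They were Ssr2, a subunit of the translocon-associated complex, at 0.39, and Os9, a lectin of ER-associated degradation, at 0.42. The list's median was 0.11, and 26 of 31 differences were above 0, against 52.4% of all genes. Both knockout arrays lay above both wild-type arrays for 14 of the 31, against 25.4% of all genes, and below both for 1, against 22.3%. Among genes with no overlap were Ero1lb of disulfide formation at 0.41, Sec11c of the signal peptidase at 0.33, Uggt1 of glycoprotein folding control at 0.32, the isomerase gene Pdia5 at 0.31 and P4hb at 0.089. Manf was at -0.025 and Edem1 at -0.20. In a list of eIF2alpha kinases, phosphatase subunits, ATF6-branch factors and partner factors, 0 of 13 tested had an unadjusted p under 0.05 by limma, against 7.23% of all genes higher and 4.09% lower, and the median was 0.016. Eif2ak3, the gene of PERK, was at -0.17, Eif2ak4, the gene of GCN2, at -0.17, the phosphatase subunit Ppp1r15a (GADD34) at -0.12, and the partner factor Cebpb at 0.27.

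Markers of other cell types were read as well. The summed linear signal of 7 tested plasma cell and B cell markers, in units of each array's 75th percentile, was 3.61 and 2.58 in wild type and 4.35 and 4.75 in the knockout. Such a sum compares arrays for 1 list and says nothing of the share of cells. Of these B cell markers Cd79b was higher (1.16) and Ebf1 lower (-0.97) at an unadjusted p under 0.05 by limma, the plasma cell gene Igj was at 0.55 and Sdc1 at -0.20, and Tnfrsf17 and Ms4a1 were not tested for lack of signal. The sums of 8 myeloid markers, 25.9 and 31.3 against 27.0 and 28.3, overlapped. Of the 8 differences 6 were above 0 and 2 below, from -0.67 for Cd14 to 0.85 for Itgax. Only Flt3, at 0.60, had an unadjusted p under 0.05 by limma, and S100a8 and S100a9 were not tested for lack of signal. The sums of 6 CD8 and NK markers, 16.5 and 19.8 against 12.8 and 16.2, did not overlap. The brightest probe in them was that of Klrd1, which was at 3.90 and 4.20 in wild type and at 3.39 and 3.77 in the knockout. In that list 3 of 6 had an unadjusted p under 0.05 by limma with the knockout higher, against 7.23% of all genes. They were Cd8a, Klra8 and Fcer1g at 1.30, 1.66 and 0.94. At that p 0 were lower, against 4.09% of all genes. The other 3 were below 0, with Cd8b1 at -0.13, Klrk1 at -0.13 and Klrd1 at -0.47. The part of such cells in the differences of the stress genes was not tested.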

How the data were processed

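The deposited scanner tables, 1 for each array, came from Agilent Feature Extraction (version 10.5.1.1 in the submitters' processing notes). The processed signal in them is the authors' linear intensity, with background subtracted. Spatial trends were removed per the file headers, though on knockout array 1 the surface had been applied at 0.799% of the bright spots. The deposited tables also hold the detrending surface as a linear ratio. The deposited matrix of log2 values equalled the log2 processed signal minus 1 constant per array (within 0.001 for all probes), which gave every array the same median of 5.54. It was used as an alternative only. Gene names are those of the files.

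Python 3.11.15 with pandas 2.3.3 was used to read the signals. Control and outlier spots were left out, spots of a probe averaged, and log2 signals shifted by each array's 75th percentile. A probe entered the test where either genotype had it well above background on both arrays, and the brightest such probe stood for its gene. Genotypes were compared in R 4.3.3 by limma 3.58.1 (lmFit, eBayes, Benjamini-Hochberg adjustment over 19187 genes), tested first on simulated data. With 2 arrays a genotype, the smallest two-sided p of an exact permutation test is 0.333. On each array 63.5% to 69.8% of spots exceeded background well and 0 were saturated, while precision is limited by the number of arrays. Array values are given for members with an unadjusted p under 0.05 or with no overlap and a difference of at least 0.3, for the sensors, and for Atf4, Ddit3 and Hspa5. Other members are given by their differences, with array values added for Atf3, Dnajb9 and Ddit4 after theirs were seen. Of other lists, up to 5 genes with the smallest p were named, and others were chosen after their values were seen. Members, lists and alternatives were chosen with earlier results of these data known.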

Additional observations from a re-analysis of the deposited data

How the results depend on the processing

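The values were recomputed under 15 other settings, and 12 of the 31 tested members changed sign in at least 1 of them, Atf4 and Herpud1 only under median scaling and the deposited matrix, where the median of all genes was -0.14. Median scaling and the deposited matrix, which shift all genes of an array alike, both gave 3 members with an unadjusted p under 0.05 (3.83% of all genes) and medians of 0.0885 (ER) and 0.12 (ATF4-type), with Atf4 at -0.0792, Calr at -0.0357, Ddit3 at -0.0397, Dnajb11 at -0.0157, Herpud1 at -0.0654, Hsp90b1 at -0.0547 and Mthfd2 at -0.0832. The count of 8 became 13 with normexp, where the share of all genes was 16.1%. It was 14 with an intensity trend (7.08%) and 4 without a filter on dim probes (6.34%). With an array left out, some or all of the 8 no longer reached that p. The gap between the medians became -0.0916 with normexp, -0.0603 with knockout array 1 corrected, -0.0865 without the filter and -0.1048 with the mean over probes. Knockout array 1 corrected put Dnajb9 at 0.0872.

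With an array left out, the gap ran from -0.1758 to 0.0095, the ER median from 0.1752 to 0.297, and genes called from 0 to 28. Ranges that crossed 0 were those of Atf6 (-0.0507 to 0.4261), Calr (-0.0078 to 0.2578), Ddit3 (-0.1324 to 0.3744), Ddit4 (-0.7965 to 0.0417), Dnajb11 (-0.0181 to 0.308), Dnajc3 (-0.2207 to 0.0618), Ern1 (-0.262 to 0.6034), Hsp90b1 (-0.0146 to 0.2267) and Mthfd2 (-0.0971 to 0.2521). The cause was not tested.

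Deviations of same-numbered arrays correlated at r = -0.0013 across 19167 genes, which are not independent replicates. With 2 arrays a genotype this is a single correlation, and the spatial surface was largely not applied on knockout array 1. It cannot show whether the replicate numbers mark pairs. With the replicate block 4 members had an unadjusted p under 0.05 by limma with the knockout higher, against 6.26% of all genes. Signal over background limits Slc7a11, which was too dim to be tested. It entered only the setting without a filter on dim probes, whose ATF4-type median and gap include it.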

Other observations

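Chaperones of other compartments were read in the same limma fit, from lists that hold no member. Among 19 tested chaperones and co-chaperones of the cytosol, 9 differences were above 0 and 10 below, with a median of -0.026, and 1 had an unadjusted p under 0.05 with the knockout higher, against 7.23% of all genes. That gene was Hspb1, a small heat shock protein, at -2.42 and -3.06 in wild type and at -1.82 and -1.67 in the knockout. It differed by 0.99 ± 0.25 (SE), and its adjusted p by limma was 0.350. The abundant chaperones differed by little, with Hspa8, the constitutive HSP70, at 0.055, Hsp90aa1 at 0.039 and Hsp90ab1 at -0.038, which were -0.11, -0.12 and -0.20 under median scaling. Hspa4, an HSP110-type chaperone of the cytosol, was at 5.68 and 5.67 in wild type and at 2.80 and 5.65 in the knockout, so that its difference of -1.45 rested on knockout array 1. These examples other than Hspb1 were chosen after their values were seen.

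Among 12 chaperones, proteases and import factors of mitochondria, 5 differences were above 0 and 7 below, with a median of -0.043, and 0 had an unadjusted p under 0.05 by limma in either direction. They ranged from -0.29 for the protease gene Yme1l1 to 0.36 for the import receptor gene Tomm20, with the chaperonin Hspd1 at -0.14 and the mitochondrial HSP70 gene Hspa9 at -0.013. Whether these lists differ from the ER members was not tested.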
